A study of Mus musculus with 12 samples.

Results

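Fas, Fadd, Cflar, Casp8, Casp9, Xiap, Casp6 and Casp1 are mouse genes of death receptor signalling and of the caspase family, and they are described here across naive, effector and tumour-exhausted CD8 T cells. The 8 genes were chosen by name, with no threshold on their values but with earlier results of these data known, among the 55401 gene identifiers counted in each library, and all 8 passed the filter on low counts. Every library came from OT-I cells, CD8 T cells that carry a transgenic receptor for an ovalbumin peptide. The day 14 and day 4 exhausted groups were CD44+ OT-I cells sorted from B78ChOVA melanomas, a tumour line that carries ovalbumin, grown in C57Bl6/J mice, 14 or 4 days after the cells had been transferred. The effector group was OT-I cells stimulated with antigen for 5 days in vitro, and the naive group was cells taken straight out of the lymph nodes of tumour-free OT-I animals. Each of the 4 groups had 3 libraries of bulk RNA-seq, made from amplified cDNA. The ages of the mice, and whether the libraries of a group came from separate mice or cultures, are not given in the labels, so p-values measure the spread between these libraries, which may be technical.

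Fas is a surface receptor whose ligand, Fas ligand, is carried by activated T cells and NK cells. Ligand binding draws the adaptor FADD to the receptor, and FADD in turn brings in procaspase-8, whose activation c-FLIP, the product of Cflar, holds in check. Caspase-9 starts the mitochondrial route on the APAF1 scaffold, and XIAP blocks caspase-9 and some, but not all, of the executioner caspases. Caspase-6 acts downstream among the executioners, and caspase-1 is the inflammasome protease that matures interleukin-1 beta and interleukin-18. In CD8 T cells this machinery is known for trimming activated clones after antigen encounter, and caspase-8 is also known to be needed for T cells to expand.

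The total count over genes ran between 11937053 and 17094006 reads per library. A level below is in CPM, the read count divided by the library size, which was scaled by the trimmed mean of M-values (TMM), and a difference is a log2 fold change with its standard error (SE). A gene is said to have risen, fallen or been called where edgeR's quasi-likelihood F test gave an adjusted p under 0.05 over 16426 genes. The summed CPM of 6 T cell markers (Cd8a, Cd8b1, Cd3e, Cd3d, Trac and Cd44) was 3295 to 3357 in day 14 libraries, 2507 to 2979 in day 4 libraries, 3997 to 4350 in effector libraries and 3252 to 3498 in naive libraries, so the labelled cell type was present in all 12. The sum hides members that moved apart, so it does not compare T cell content between groups. Cd44, on which the tumour cells were sorted, averaged 431 CPM at day 14, 414 at day 4, 73.8 in effector and 23.3 in naive cells. Cd8b1 averaged 381 CPM at day 14, 310 at day 4, 1164 in effector and 894 in naive cells. Markers of other cells moved with the tumour groups. The summed CPM of 7 melanoma genes was 414 to 1608 in day 14, 666 to 1003 in day 4, 36.8 to 42.4 in effector and 26.2 to 32.7 in naive libraries, and that of 6 dendritic cell and MHC class II genes was 164 to 202 in day 14, 134 to 174 in day 4, 6.18 to 14.2 in effector and 12.2 to 31.8 in naive libraries. Fibroblast genes summed to 6.60 to 16.4 CPM in day 14, 1.25 to 20.2 in day 4, 0.258 to 1.08 in effector and 0.230 to 1.18 in naive libraries. Macrophage genes are given with Casp1. Their part in each difference between tumour cells and the other groups was not tested. B cell genes summed to 1.15 to 3.10 CPM in day 14, 1.67 to 2.28 in day 4, 2.73 to 6.73 in effector and 5.82 to 12.1 in naive libraries. Cd4 with Foxp3 summed to 4.60 to 8.98 CPM in day 14, 3.52 to 5.77 in day 4, 3.56 to 7.74 in effector and 1.77 to 2.87 in naive libraries. Over all 12 libraries neutrophil genes summed to between 0 and 1.20 CPM and NK cell genes to at most 0.717 CPM. Endothelial genes, among them Pecam1, which naive T cells also carry, summed to 41.7 to 56.5 CPM in day 14, 62.0 to 80.8 in day 4, 177 to 186 in effector and 178 to 198 in naive libraries. Nearly all of that sum was Pecam1. The other endothelial genes were near 0 in most libraries and highest in day 14 replicate 1. Kdr averaged 1.43 CPM at day 14, 0.167 at day 4, 0.109 in effector and 0 in naive cells. Cdh5 averaged 0.866, 0.0645, 0 and 0.152 CPM in that order. In bulk RNA, fewer cells that carry a transcript and less of it per cell cannot be told apart.

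The promoter windows of 4 of the genes are shown because the results turn on them: Fas was high at day 4 and not at day 14, Casp1 had the widest range of levels, and Cflar and Casp8 are neighbours on 1 strand of chromosome 1 that were both lower in day 14, day 4 and effector cells than in naive cells. Each window holds 250 bases before and 50 after the RefSeq start on GRCm38.p6, read 5′ to 3′ on the gene's strand, and the capitals mark the 2 motif matches found. The windows are chr19:34290409-34290708 for Fas, chr9:5298267-5298566 for Casp1, chr1:58711241-58711540 for Cflar and chr1:58802252-58802551 for Casp8, all on the plus strand.
Fas: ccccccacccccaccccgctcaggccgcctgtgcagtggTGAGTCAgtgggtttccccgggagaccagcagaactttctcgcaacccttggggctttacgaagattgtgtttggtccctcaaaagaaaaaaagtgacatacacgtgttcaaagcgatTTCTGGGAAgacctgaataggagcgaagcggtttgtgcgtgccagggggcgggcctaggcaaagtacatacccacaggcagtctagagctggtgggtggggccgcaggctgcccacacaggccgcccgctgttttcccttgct
Casp1: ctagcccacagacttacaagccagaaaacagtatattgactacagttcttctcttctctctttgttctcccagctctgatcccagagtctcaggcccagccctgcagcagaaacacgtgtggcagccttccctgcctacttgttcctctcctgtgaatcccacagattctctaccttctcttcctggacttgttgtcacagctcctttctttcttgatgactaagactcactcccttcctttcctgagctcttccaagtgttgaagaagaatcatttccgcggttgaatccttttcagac
Cflar: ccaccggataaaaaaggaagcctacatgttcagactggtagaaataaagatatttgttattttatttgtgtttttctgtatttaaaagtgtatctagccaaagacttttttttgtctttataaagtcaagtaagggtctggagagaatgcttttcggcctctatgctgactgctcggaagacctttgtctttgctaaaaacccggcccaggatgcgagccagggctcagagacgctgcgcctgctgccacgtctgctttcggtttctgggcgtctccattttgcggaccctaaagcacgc
Casp8: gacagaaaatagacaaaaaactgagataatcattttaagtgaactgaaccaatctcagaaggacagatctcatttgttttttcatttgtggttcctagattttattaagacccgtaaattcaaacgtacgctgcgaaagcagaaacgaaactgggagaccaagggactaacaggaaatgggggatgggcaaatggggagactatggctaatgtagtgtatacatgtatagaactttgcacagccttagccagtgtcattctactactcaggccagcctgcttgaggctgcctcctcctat
The 4 motifs were searched on both strands in the 10 windows of the 8 genes, of which Xiap had 3: NF-kappaB as GGNNTTTCC, AP-1 as TGANTCA, STAT as TTCNNNGAA and ETS as CCGGAAGT. Of 32851 windows of the same length over all genes, 5.82%, 7.81%, 8.30% and 3.89% held them in that order. Fas alone among the 8 held any, an AP-1 match (TGAGTCA) that began 211 bases before the start and a STAT match (TTCTGGGAA) that began 93 bases before it, and these 2 matches did not overlap. A match describes the letters of the window and no more.

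Across the 4 groups 7 of the 8 genes differed, beside 74.8% of all genes tested, so the share among these genes was close to that of the transcriptome. Fadd was the exception (adjusted p = 0.573, edgeR's test over 4 groups). Day 14 tumour cells differed from naive cells in 5 of the 8, against 62.1% of all genes, with Casp1 and Xiap higher (33.6% of all genes were higher) and Cflar, Casp8 and Casp9 lower (28.5% were lower). Day 4 tumour cells differed from naive cells in 6 of the 8, against 62.2%, with Fas, Casp1 and Xiap higher (33.4%) and Cflar, Casp8 and Casp9 lower (28.8%). Effector cells differed from naive cells in 5 of the 8, against 24.9%, with Fas, Casp1 and Xiap higher (14.6%) and Cflar and Casp8 lower (10.4%). That last background depends on the scaling: TMM gave 2395 genes higher and 1703 lower in effector cells, and library totals alone, with which the median of all genes was -0.10 in place of 0.01, gave 1544 higher and 2508 lower.

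Against effector cells, day 14 tumour cells differed in 5 of the 8 genes (61.0% of all genes), with Casp1 higher (32.6%) and Fas, Cflar, Casp6 and Casp9 lower (28.4%). Day 4 tumour cells also differed from effector cells in 5 of the 8 (61.9%). All 5, Cflar, Casp1, Casp6, Casp8 and Casp9, were lower (29.2%), and 0 were higher (32.7%) by edgeR's test, at an unadjusted p under 0.05 and by DESeq2. Between the tumour time points 2 of the 8 differed (12.1% of all genes), Casp1 higher (7.17%) and Fas lower (4.91%) at day 14. The median log2 fold change of the 8 genes was -0.35 for day 14 and -0.36 for day 4 against naive cells, where the medians of all genes were 0.04 and 0.03. It was 0.17 for effector against naive cells, where that of all genes was 0.01. The comparisons with naive cells share the 3 naive libraries, so their values stand side by side below and are not counted as support for each other.

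**Figure D1:**
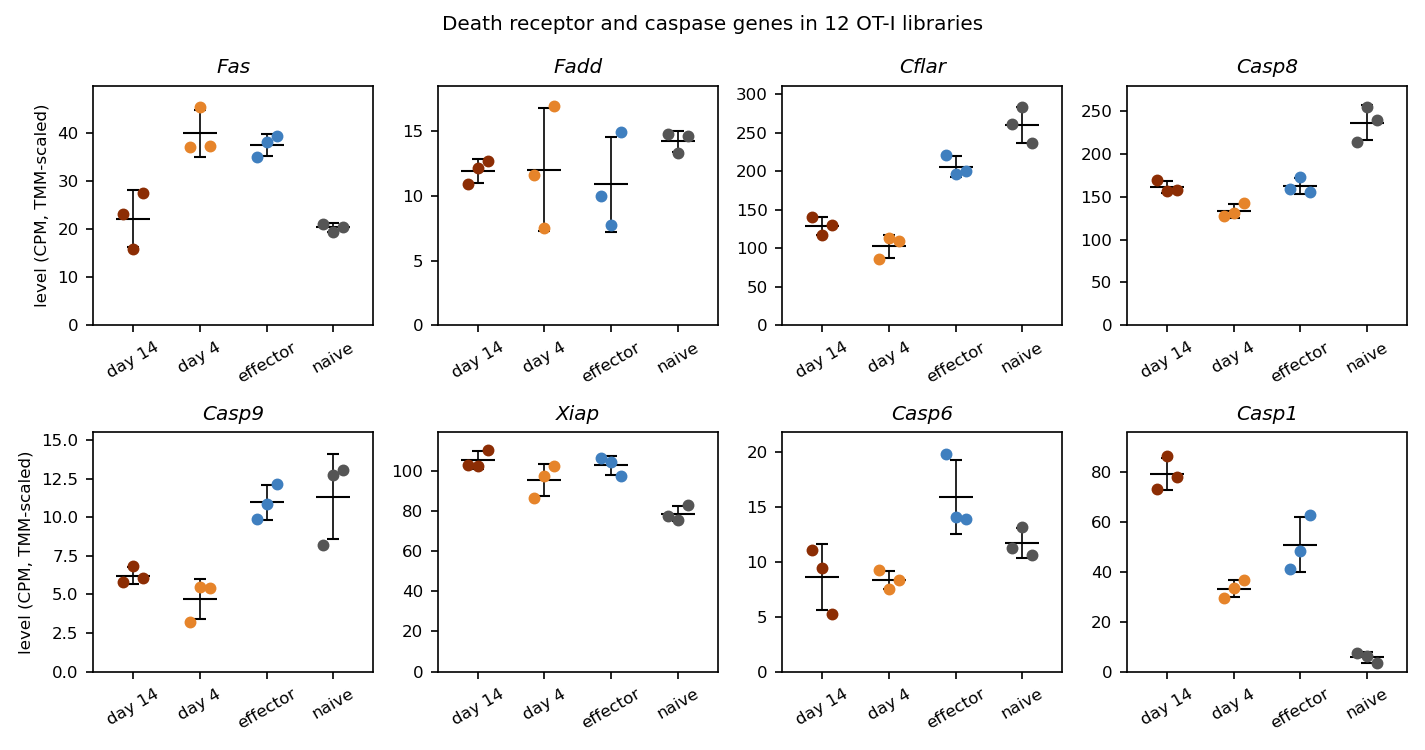
Level of each gene (y axis, TMM-scaled CPM, linear and from 0) in day 14, day 4, effector and naive OT-I libraries (x axis). Points are the 3 libraries of a group, and the bar and whiskers are their mean ± SD. Fas is high in the 3 day 4 and 3 effector libraries, Casp1 lies between 3.44 and 7.39 CPM in naive libraries and above 29 in the rest, and Cflar and Casp9 are lower in every tumour library than in any effector or naive one.

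The receptor gene Fas (ENSMUSG00000024778.13, chromosome 19, 34290666 to 34327772, plus strand of GRCm38) was high in day 4 tumour cells and in effector cells, and near the naive level at day 14. Its level was 23.2, 15.8 and 27.5 CPM in the day 14 libraries, 37.0, 45.4 and 37.1 CPM in the day 4 libraries, 34.9, 38.0 and 39.4 CPM in the effector libraries, and 21.1, 19.4 and 20.4 CPM in the naive libraries. Every day 4 and effector library lay above every day 14 and naive library, and day 4 overlapped effector as day 14 overlapped naive. Fas was higher than in naive cells by 0.97 (SE 0.17, adjusted p = 0.000106) on the log2 scale at day 4 and by 0.88 (SE 0.17, adjusted p = 0.00118) in effector cells, by edgeR's test. Day 14 cells did not pass against naive cells, at 0.12 (SE 0.17, adjusted p = 0.540). They were below day 4 cells by 0.85 (log2 fold change -0.85, SE 0.17, adjusted p = 0.00282) and below effector cells (log2 fold change -0.76, adjusted p = 0.000971). Each of these 4 differences passed under all 19 alternatives of scaling, filter, test and left-out libraries.

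Fasl, which encodes the ligand of Fas, took another course. Its level was 159, 200 and 152 CPM in day 14 libraries, 23.2, 32.4 and 42.9 CPM in day 4 libraries, 4.96, 15.1 and 8.66 CPM in effector libraries, and under 0.24 CPM in each naive library, where 1, 3 and 2 reads were counted. The 4 groups did not overlap. Fasl was higher at day 14 than at day 4 by 2.37 on the log2 scale (SE 0.33, adjusted p = 0.00114, edgeR) and than in effector cells by 4.17 (SE 0.37, adjusted p = 4.33e-06), and day 4 exceeded effector cells by 1.79 (SE 0.35, adjusted p = 0.00124). Between the tumour time points the receptor gene was therefore lower and the ligand gene higher at day 14.

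Fadd (ENSMUSG00000031077.7, chromosome 7, 144577318 to 144582463, minus strand), the adaptor between receptor and caspase-8, showed no difference that passed in any of the 6 comparisons. It averaged 11.9 ± 0.935 CPM at day 14, 12.02 ± 4.75 CPM at day 4, 10.9 ± 3.68 CPM in effector cells and 14.2 ± 0.812 CPM in naive cells (SD, n = 3 each). The day 4 libraries alone ran from 7.51 to 16.97 CPM and the effector libraries from 7.74 to 14.9 CPM, wider than the distance between any 2 group means. Its log2 fold changes lay between -0.38 (SE 0.27, effector against naive) and 0.14, and with counts of 90 to 254 reads per library a change smaller than that spread was not detectable. The antisense gene Faddos shares 239 exon bases with Fadd and had 0 to 5 reads. Since the counts do not use strand, reads over the shared bases are ambiguous. Ambiguous reads were left out, so these are missing from both genes.

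Casp8 (ENSMUSG00000026029.14, chromosome 1, 58795374 to 58847503, plus strand), the initiator caspase of the receptor complex, was highest in naive cells. Its level was 170, 157 and 158 CPM in day 14 libraries, 127, 131 and 142 CPM in day 4 libraries, 159, 173 and 155 CPM in effector libraries, and 214, 255 and 239 CPM in naive libraries. All 9 antigen-experienced libraries lay below the lowest naive library, and day 14 overlapped effector. Against naive cells Casp8 fell by 0.55 (SE 0.09, adjusted p = 4.58e-05) on the log2 scale at day 14, by 0.82 (SE 0.09, adjusted p = 5.87e-07) at day 4 and by 0.54 (SE 0.09, adjusted p = 0.000283) in effector cells, by edgeR's test. Day 4 was the low point: it was below effector cells (log2 fold change -0.28, adjusted p = 0.0105), a difference that failed with library totals alone (adjusted p = 0.0587), without the filter (0.0573), without day 4 replicate 1 (0.0518) or without day 4 replicate 2 (0.0877). Day 14 stood above day 4 in every library, by 0.27 (adjusted p = 0.0519), and did not pass. Without effector replicate 2, a library outside that comparison, it did pass (adjusted p = 0.0463).

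Cflar (ENSMUSG00000026031.15, chromosome 1, 58711508 to 58758884, plus strand), whose product c-FLIP restrains caspase-8, had the largest falls of the 8 genes in day 14 and in day 4 against naive cells. Its level was 140, 117 and 130 CPM in day 14 libraries, 85.4, 113 and 109 CPM in day 4 libraries, 221, 196 and 201 CPM in effector libraries, and 260, 283 and 236 CPM in naive libraries. The groups did not overlap, in the order naive, effector, day 14 and day 4. Against naive cells Cflar fell by 1.01 (SE 0.11, adjusted p = 8.04e-07, edgeR) on the log2 scale at day 14 and by 1.34 (SE 0.11, adjusted p = 3.10e-08) at day 4. Against effector cells it fell by 0.67 (SE 0.11, adjusted p = 5.95e-05) at day 14 and by 1.01 (SE 0.11, adjusted p = 7.91e-07) at day 4. The step between effector and naive cells was small, -0.33 (SE 0.11, adjusted p = 0.0338), and was lost without naive replicate 1 (adjusted p = 0.0772), naive replicate 2 (0.149), effector replicate 2 (0.106) or effector replicate 3 (0.0657). Day 14 was 0.33 above day 4 (SE 0.11, adjusted p = 0.0610) and did not pass, except without the filter on low counts (adjusted p = 0.0220). The count covers the whole gene, so the long and short forms of c-FLIP were not separated.

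Within a library, the log2 ratio of Cflar to Casp8 counts compares inhibitor and caspase with no scaling between libraries. It was -0.28, -0.42 and -0.28 in day 14 libraries, -0.58, -0.21 and -0.38 in day 4 libraries, 0.48, 0.18 and 0.37 in effector libraries, and 0.28, 0.15 and -0.02 in naive libraries. All 6 tumour libraries lay below all 6 others. The geometric mean was 0.798 Cflar reads per Casp8 read at day 14 and 0.763 at day 4, against 1.27 in effector and 1.10 in naive cells. The 4 groups differed by an exact permutation test of the F statistic over 369600 assignments of 12 libraries (p = 0.00149, adjusted over 2 ratios 0.00149). These are read ratios of genes of different length, not ratios of molecules.

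**Figure D2:**
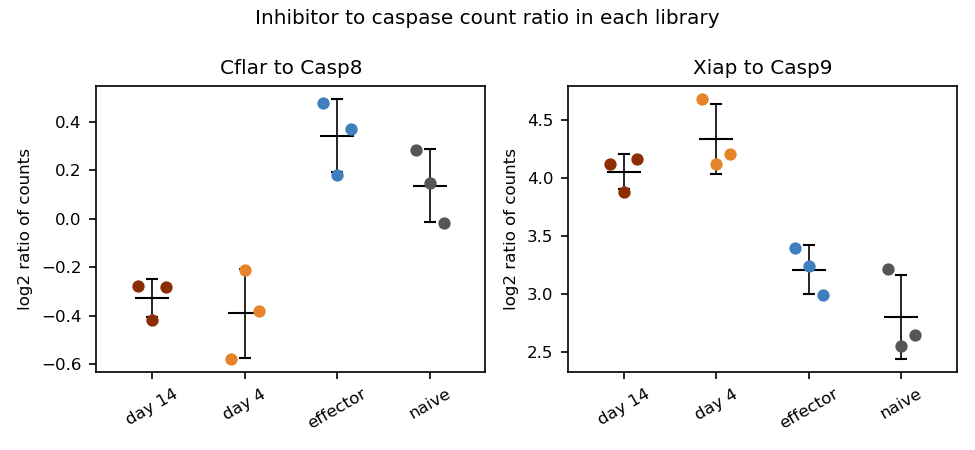
Log2 ratio of counts (y axis) of Cflar to Casp8 and of Xiap to Casp9 within each library, by group (x axis: day 14, day 4, effector, naive). Points are libraries, and the bar and whiskers are mean ± SD of 3. The 6 tumour libraries lie below the other 6 for Cflar to Casp8 and above them for Xiap to Casp9.

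Casp9 (ENSMUSG00000028914.13, chromosome 4, 141793612 to 141815976, plus strand), the initiator caspase of the mitochondrial route, was lower in both tumour groups than in effector or naive cells. Its level was 5.81, 6.82 and 6.05 CPM in day 14 libraries, 3.23, 5.47 and 5.41 CPM in day 4 libraries, 9.92, 10.8 and 12.1 CPM in effector libraries, and 8.20, 12.7 and 13.1 CPM in naive libraries. No tumour library reached the lowest naive library, and the effector and naive ranges overlapped. Against naive cells it fell by 0.86 (SE 0.25, adjusted p = 0.00642, edgeR) on the log2 scale at day 14 and by 1.26 (SE 0.25, adjusted p = 0.000394) at day 4, and against effector cells by 0.81 (adjusted p = 0.00953) at day 14 and by 1.22 (adjusted p = 0.000551) at day 4. Day 14 was above day 4 by 0.40 (SE 0.25, adjusted p = 0.372) and effector stood at -0.05 from naive cells (SE 0.24, adjusted p = 0.928), neither of which passed. Casp9 had 44 to 171 reads per library, the fewest of the 8 genes in most libraries. The exceptions were the naive libraries, where Casp1 had 100, 80 and 45, day 14 replicate 3 (Casp6, 87) and effector replicate 2 (Fadd, 90). On the opposite strand Cela2a and Ctrc each share 94 exon bases with it, with 0 to 8 and 0 reads.

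Xiap (ENSMUSG00000025860.15, chromosome X, 42059679 to 42109656, plus strand), which encodes an inhibitor of caspase-9 and of some executioners, was higher in all antigen-experienced groups than in naive cells, by a small margin. Its level was 103, 102 and 110 CPM in day 14 libraries, 86.4, 97.2 and 102 CPM in day 4 libraries, 106, 104 and 97.4 CPM in effector libraries, and 77.6, 75.3 and 82.7 CPM in naive libraries. The naive libraries lay below all 9 others, which overlapped one another. Xiap was higher than in naive cells by 0.42 (SE 0.09, adjusted p = 0.000658, edgeR) at day 14, by 0.28 (SE 0.09, adjusted p = 0.0127) at day 4 and by 0.39 (SE 0.09, adjusted p = 0.00479) in effector cells, on the log2 scale. With library totals in place of TMM the effector value was 0.25 and failed (adjusted p = 0.0531). The 3 comparisons among day 14, day 4 and effector cells did not pass, with log2 fold changes between -0.11 and 0.14.

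The log2 ratio of Xiap to Casp9 counts averaged 4.05 ± 0.15 at day 14 and 4.34 ± 0.30 at day 4, against 3.21 ± 0.21 in effector and 2.80 ± 0.36 in naive cells (SD, n = 3 each). That was a geometric mean of 16.6 and 20.2 Xiap reads per Casp9 read in day 14 and day 4 cells, against 9.26 in effector and 6.98 in naive cells. All 6 tumour libraries lay above all 6 others, and the groups differed by the exact permutation test (p = 0.000844, adjusted over 2 ratios 0.00149). The ratio of inhibitor to initiator caspase thus was lower in tumour cells for the receptor pair and higher for the mitochondrial pair.

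Casp6 (ENSMUSG00000027997.9, chromosome 3, 129901425 to 129914103, plus strand), an executioner caspase known for cleaving nuclear lamins, was highest in effector cells. Its level was 11.1, 9.47 and 5.27 CPM in day 14 libraries, 9.24, 7.57 and 8.35 CPM in day 4 libraries, 19.8, 14.1 and 13.9 CPM in effector libraries, and 11.3, 13.2 and 10.6 CPM in naive libraries. The effector libraries lay above all others. It fell below effector cells by 0.89 (SE 0.25, adjusted p = 0.00491, edgeR) on the log2 scale at day 14 and by 0.93 (SE 0.25, adjusted p = 0.00369) at day 4. None of the differences from naive cells passed: -0.45 (adjusted p = 0.127) at day 14, -0.48 (adjusted p = 0.101) at day 4 and 0.45 (adjusted p = 0.202) in effector cells. The first of them depended on the libraries kept. It passed without day 14 replicate 1, at -0.66 (adjusted p = 0.0441, edgeR), and leaving out each library in turn gave -0.66 to -0.18. The cause was not tested.

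Casp1 (ENSMUSG00000025888.6, chromosome 9, 5298517 to 5307265, plus strand), the inflammasome caspase, changed the most of the 8 genes. Its level was 73.3, 86.3 and 78.2 CPM in day 14 libraries, 29.7, 33.5 and 36.6 CPM in day 4 libraries, 41.3, 48.5 and 62.8 CPM in effector libraries, and 7.39, 6.37 and 3.44 CPM in naive libraries. The 4 groups did not overlap, and their order was day 14, effector, day 4 and naive. Against naive cells it was 13.8-fold higher at day 14 (log2 fold change 3.79, SE 0.23, adjusted p = 2.77e-09, edgeR), 5.79-fold at day 4 (2.53, SE 0.22, adjusted p = 1.61e-07) and 8.85-fold in effector cells (3.15, SE 0.22, adjusted p = 3.1e-07). Day 14 exceeded day 4 by 1.25 (SE 0.20, adjusted p = 0.000636), a 2.38-fold difference, and exceeded effector cells by 0.64 (SE 0.19, adjusted p = 0.00987). Day 4 fell below effector cells by 0.61 (SE 0.20, adjusted p = 0.0136), which did not hold without effector replicate 3 (adjusted p = 0.115), day 4 replicate 1 (0.0601) or day 4 replicate 2 (0.0563).

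Macrophages are also known to carry caspase-1, and their part in the Casp1 levels was not tested. The summed level of 10 macrophage and monocyte genes was 67.6 to 119.7 CPM at day 14 and 64.8 to 133 CPM at day 4, against 5.42 to 11.01 CPM in effector cells and 14.1 to 27.9 CPM in naive cells. The sum was thus higher, with Casp1, in both tumour groups than in naive and effector cells, except that Casp1 at day 4 was below effector cells. Its members did not all follow it. Apoe averaged 44.4 CPM at day 14, 45.1 at day 4 and 4.26 in naive cells, and Cd68 20.3, 18.4 and 6.95 CPM. Against naive cells Apoe, Cd68 and C1qb were called higher at both day 14 and day 4, and the others, among them Csf1r and Mrc1, were not called. Against effector cells all but Fcgr3 were called higher at both times. The sum overlapped between day 14 and day 4, and it was lower in effector than in naive cells.

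**Figure D3:**
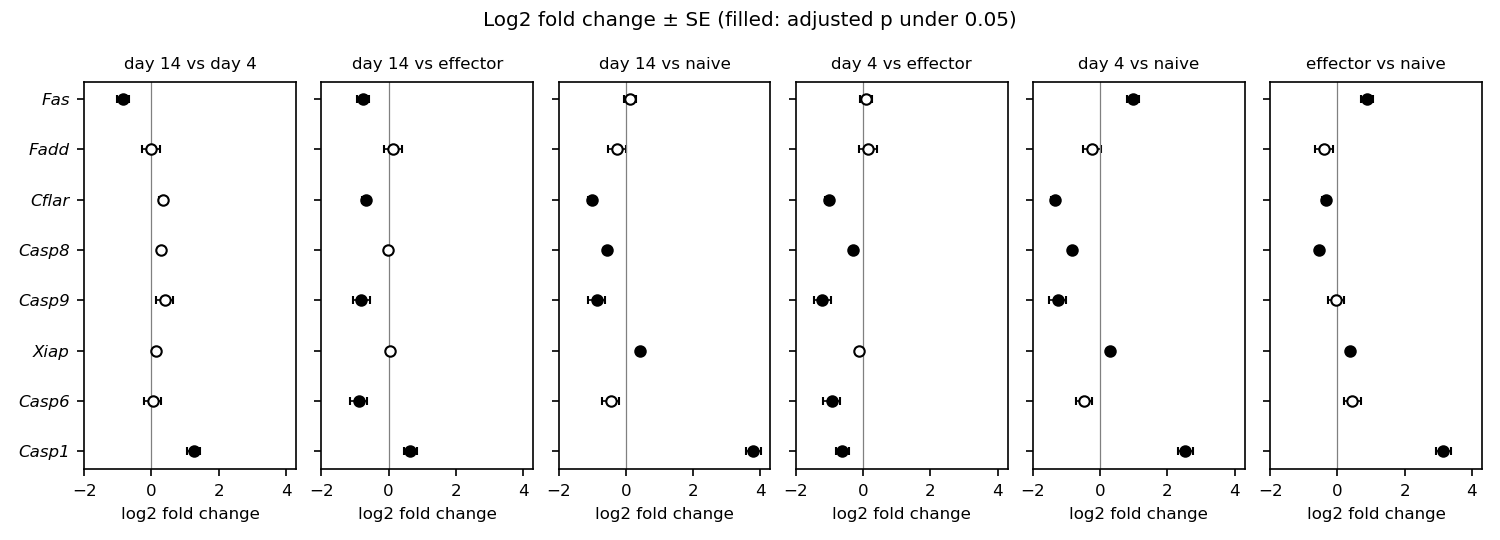
Log2 fold change ± SE (x axis) of each gene (rows) in the 6 comparisons, named above each panel with the group on top of the fold first. Filled points have an adjusted p under 0.05 by edgeR's test, open points do not. Casp1 is the rightmost point in all comparisons but day 4 against effector cells, and Fas is filled on the left in the panels of day 14 against day 4 and against effector cells.

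Levels of different genes were compared per length, as CPM per kilobase of merged exons. That takes a gene's longest outline and so understates genes whose long exons are little used. Exon use was not measured, and Cflar had the most exon bases of the 8 (12669). Casp8 was the highest of the 8 in all groups, at 55.8 CPM per kilobase at day 14, 46.1 at day 4, 56.1 in effector cells and 81.7 in naive cells. Casp1 was at 53.0, 22.2 and 34.0 CPM per kilobase in day 14, day 4 and effector cells, next after Casp8 in each and within the spread of libraries of it at day 14, but at 3.83 in naive cells, where Cflar (20.5), Fas (9.85) and Xiap (8.29) stood above it. Fas at 19.3 and 18.2 CPM per kilobase ranked next in day 4 and effector cells, and in day 14 cells Xiap (11.1), Fas (10.7) and Cflar (10.2) were close together. Fadd, Casp6 and Casp9 were the lowest 3 in every group, between 0.905 and 3.65 CPM per kilobase.

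**Figure D4:**
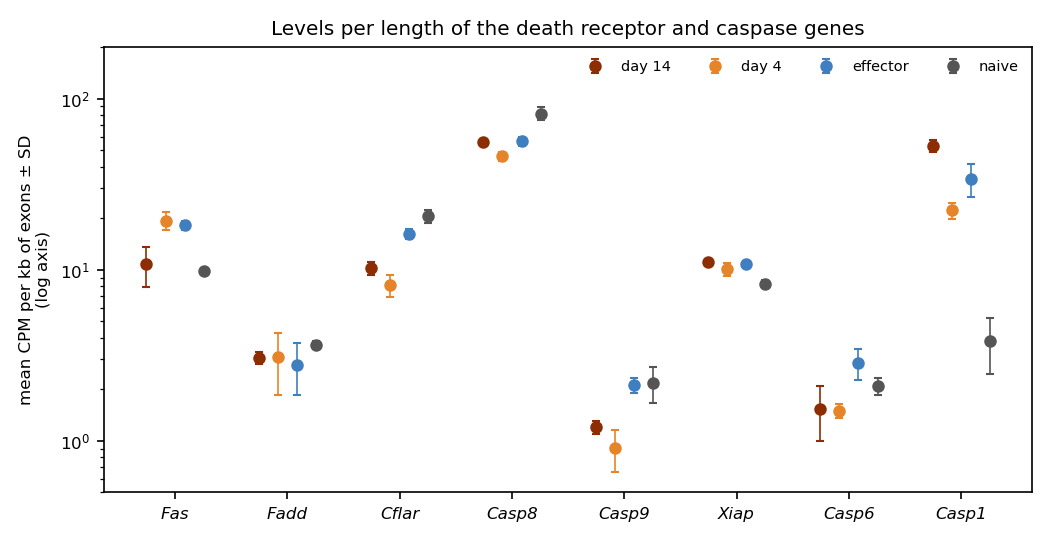
Mean level ± SD of each gene in CPM per kilobase of merged exons (y axis, log scale), with day 14, day 4, effector and naive cells left to right within each gene (x axis, 3 libraries a group). Casp8 is at the top in every group, Casp1 runs between 3.83 in naive and 53.0 in day 14 cells, and Fadd, Casp6 and Casp9 stay under 4.

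The genes whose log2 CPM followed each of the 8 most closely over the 12 libraries were looked up among about 8205 protein-coding genes. Among the closest were Cenpj (Pearson r = 0.993) and Sfxn3 (0.981) to Cflar, Vps54 (0.975) to Casp1, Ppcdc (0.971) and Snx20 (0.956) to Casp9, Hsd11b1 (0.958) and Bin1 (0.954) to Casp8, Asap1 (0.954) and Atrx (0.946) to Fas, Ccr2 (0.952) and S100a10 (0.943) to Xiap, and Ctns (0.942) and Zrsr1 (0.913) to Casp6. For Fadd the best were lower, Gm9844 (0.847) and Mtln (0.816). Among the 8 themselves Cflar and Casp9 (r = 0.900), Casp1 and Xiap (0.879) and Cflar and Casp8 (0.846) were the nearest pairs, and Casp1 and Casp8 ran opposite (-0.755). These values describe 12 libraries that share 4 group means and their scaling, and carry no test.

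The other genes of these routes were followed with a list of 46, of which 43 passed the filter. Tnfsf15, Casp14 and Nlrp3 did not. Casp12, with 0 reads in every effector and naive library, passed through tumour libraries alone. So did Il1b, with 0, 6 and 0 reads in naive, 1, 0 and 0 in effector and 21 to 58 in tumour libraries. Il18, with 1, 0 and 0 naive reads, and Fasl, with 1, 3 and 2, passed through the groups other than naive. The counts below include Casp12 and Il1b among the genes higher in day 14 and day 4 cells than in naive or effector cells. They include Il18 and Fasl among the genes higher than in naive cells in all 3 groups. These calls are no support for a direction of the list. Of the 43, day 14 cells differed from naive cells in 31 (62.1% of all genes), with 23 higher (33.6%) and 8 lower (28.5%). Day 4 cells differed from naive cells in 33 (62.2%), with 21 higher (33.4%) and 12 lower (28.8%), and effector cells in 14 (24.9%), with 11 higher (14.6%) and 3 lower (10.4%). Their median log2 fold change against naive cells was 0.52 at day 14, 0.53 at day 4 and 0.19 in effector cells, beside 0.04, 0.03 and 0.01 over all genes. Day 14 and day 4 cells differed in 11 of the 43 (12.1% of all genes), with 9 higher (7.17%) and 2 lower (4.91%) at day 14 (median 0.19, against -0.00 over all genes). Against effector cells 33 differed at day 14 (61.0% of all genes), with 21 higher (32.6%) and 12 lower (28.4%), and 32 at day 4 (61.9%), with 19 higher (32.7%) and 13 lower (29.2%).

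Among the other caspases, Casp4, which senses lipopolysaccharide in the cytosol, rose in all 3 antigen-experienced groups. It averaged 89.3 ± 11.6 CPM at day 14, 74.1 ± 4.63 CPM at day 4, 23.5 ± 6.12 CPM in effector and 3.52 ± 1.33 CPM in naive cells (SD, n = 3 each), with log2 fold changes against naive cells of 4.66 at day 14, 4.39 at day 4 and 2.73 in effector cells, all called. Of the 5 other caspases tested, 4 rose against naive cells at day 14 (33.6% of all genes were higher), by edgeR's test. At day 4 it was 3 (33.4%), and in effector cells 2 (14.6%). Casp12 is counted among those that rose in tumour cells, where it had 2 to 28 reads per library. With 0 reads in every effector and naive library, it passed the filter through tumour libraries alone, so its calls are no support.

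On the mitochondrial route, Apaf1, the scaffold on which caspase-9 is activated, rose against naive cells in all 3 groups. It averaged 141.7 ± 13.8 CPM at day 14, 98.0 ± 5.33 CPM at day 4, 73.7 ± 12.6 CPM in effector and 30.1 ± 4.13 CPM in naive cells (SD, n = 3 each), and was higher than in naive cells by 2.24 at day 14, 1.70 at day 4 and 1.29 in effector cells on the log2 scale, all called. Diablo, whose product relieves inhibition by XIAP, was lower in tumour than in naive cells, at -0.86 at day 14 (adjusted p = 0.000494) and -0.74 at day 4 (adjusted p = 0.00165). Among the other inhibitor of apoptosis genes, Birc2, which encodes cIAP1, averaged 541 ± 16.5 CPM at day 14, 397 ± 6.66 CPM at day 4, 239 ± 18.8 CPM in effector and 167 ± 7.60 CPM in naive cells, and was higher than in naive cells by 1.70 at day 14, 1.25 at day 4 and 0.52 in effector cells, all called. Birc6 went the other way in tumour cells, at -0.46 (adjusted p = 8.92e-05) on day 14 and -0.40 (adjusted p = 0.000362) on day 4 against naive cells, and was higher in effector cells by 0.38 (adjusted p = 0.00237).

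Of the other 4 death receptors, Tnfrsf10b, the mouse TRAIL receptor, averaged 25.3 ± 3.91 CPM at day 14, 35.7 ± 4.17 CPM at day 4, 10.7 ± 2.03 CPM in effector and 17.6 ± 1.91 CPM in naive cells. It was higher than in naive cells at day 4 by 1.02 (adjusted p = 6.95e-05, edgeR) and lower in effector cells (log2 fold change -0.72, adjusted p = 0.00700). Its day 14 value of 0.53 passed (adjusted p = 0.0130) but not without naive replicate 3 or day 14 replicate 1 (highest adjusted p = 0.0642). Tnfrsf25, the receptor for TL1A, was close to absent in tumour cells, with 0, 5 and 3 reads in day 14 libraries and 5, 8 and 7 in day 4 libraries, against 43, 39 and 47 in effector and 192, 87 and 120 in naive libraries. It fell against naive cells at day 4 by 4.49 (SE 0.48, adjusted p = 6.27e-07). The 4 death ligands tested include Fasl, which passed the filter through the groups other than naive. All 4 rose against naive cells at day 14 (33.6% of all genes were higher) and at day 4 (33.4%), and 3 in effector cells (14.6%). Some of these calls were lost with a library or setting changed: Tnf in effector cells with library totals, with only the groups compared, and without naive replicate 1, naive replicate 2 or effector replicate 3 (highest adjusted p = 0.176), Tnf at day 4 without naive replicate 1 or day 4 replicate 3 (0.0825), and Lta at day 14 without day 14 replicate 3 (0.0533).

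Of the adaptors and kinases, Pidd1, the scaffold for caspase-2, was higher than in naive cells by 1.47 at day 14 and 1.15 at day 4, and Pea15a, a death effector domain protein that binds FADD, was lower, at -0.68 on day 14 and -1.23 on day 4. In the inflammasome group, Pycard, the adaptor that joins sensors to caspase-1, was lower than in naive cells in the groups in which Casp1 was higher than in naive cells. It averaged 37.8 ± 5.36 CPM at day 14, 47.4 ± 5.84 CPM at day 4, 74.0 ± 9.76 CPM in effector and 102.2 ± 9.92 CPM in naive cells. Its log2 fold changes against naive cells were -1.44 at day 14, -1.11 at day 4 and -0.47 in effector cells. The last was lost without naive replicate 2 (adjusted p = 0.0767). Between day 4 and effector cells the 2 genes went the same way, both lower at day 4, Pycard by 0.64 (log2 fold change -0.64) and Casp1 by 0.61 (-0.61). In the necroptosis group Mlkl, the pore-forming effector, was at 17.8, 18.6 and 13.6 CPM in day 14 libraries, 8.36, 7.75 and 10.3 CPM in day 4 libraries, 8.56, 16.7 and 8.59 CPM in effector libraries and 0.296, 1.83 and 0.153 CPM in naive libraries. It was called in each against naive cells, at 4.46 on day 14, 3.54 on day 4 and 3.90 in effector cells on the log2 scale. Without naive replicate 2 these were 6.16 on day 14, 5.25 on day 4 and 5.59 in effector cells. Zbp1, a nucleic acid sensor upstream of it, was lower in tumour than in naive cells, at -1.21 on day 14 and -2.64 on day 4.

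**Figure D5:**
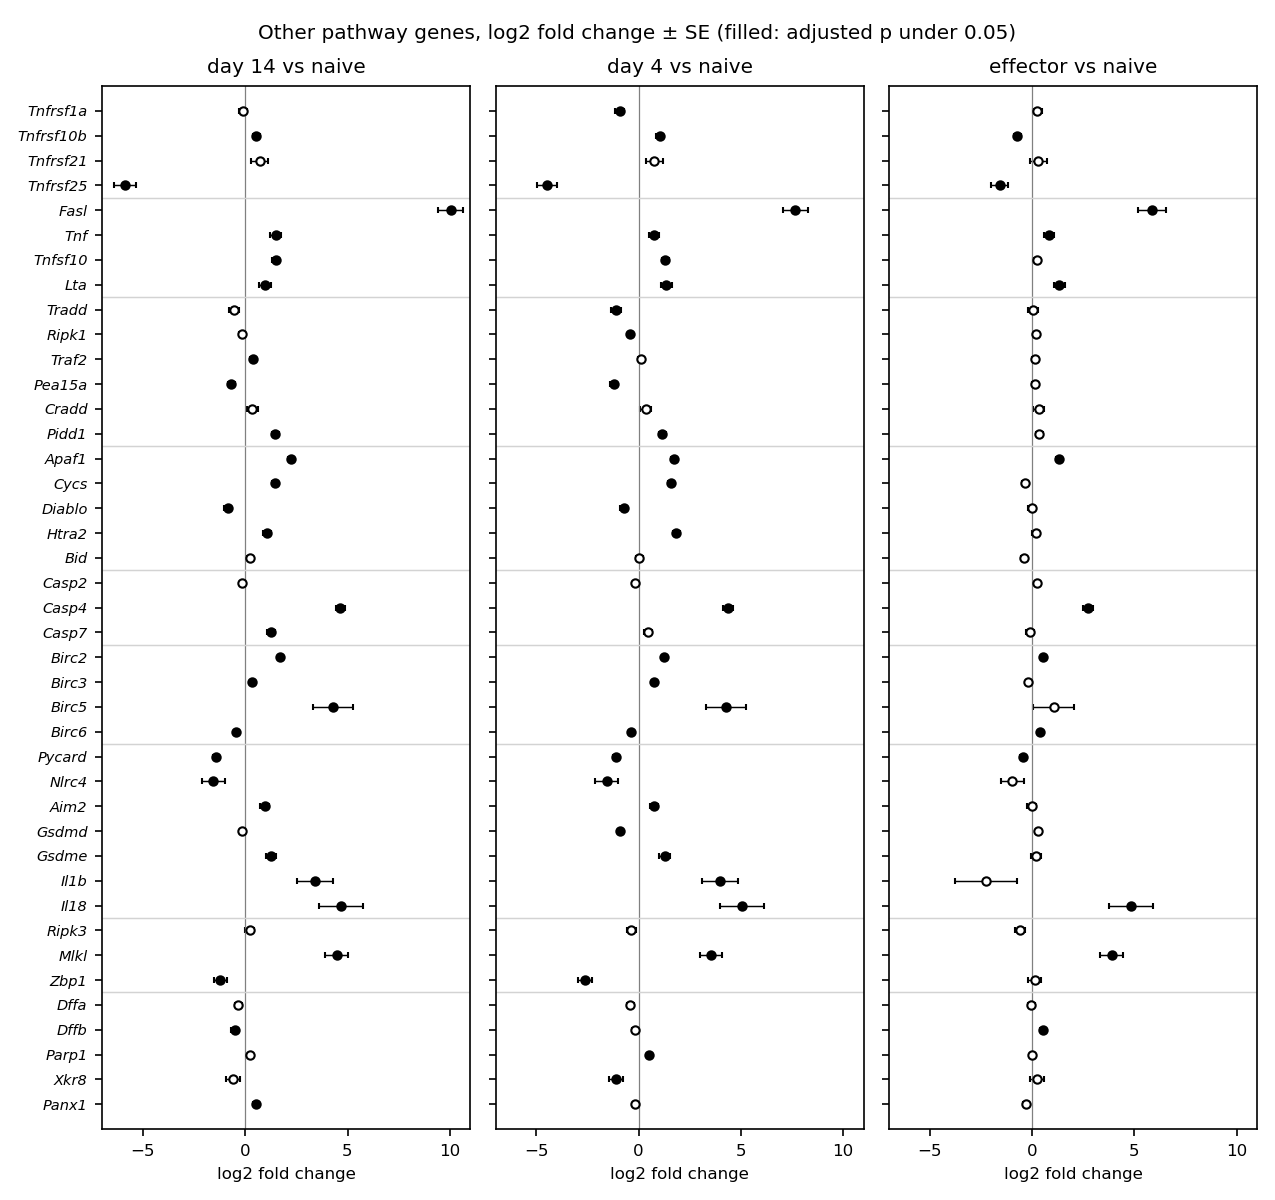
Log2 fold change ± SE (x axis) against naive cells of other genes of these routes (rows, in blocks of receptors, ligands, adaptors and kinases, mitochondrial route, other caspases, inhibitors, inflammasome, necroptosis and execution), for day 14, day 4 and effector cells. Filled points have an adjusted p under 0.05 by edgeR's test, and Casp12 is left out because it had 0 reads in naive libraries. Casp4 is filled far right of 0 in all 3 panels, Tnfrsf25 is far left at day 14 and day 4, and the point of Fasl rests on 1 to 3 reads in each naive library.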

How the data were processed

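Bulk RNA-seq of 12 OT-I libraries, 3 in each of 4 groups, was analysed from the deposited gene counts. Per the submitters' processing notes, reads were trimmed with fastp 0.19.6 and aligned with STAR 2.6.1b to GRCm38; the annotation release is not given in the sources used here. Per the labels' protocols, cDNA was amplified before library preparation, so reads are not independent molecules. The unstranded count column was used, since the 2 stranded columns held near equal shares. The 4 summary lines (unmapped, multimapped, outside genes and ambiguous reads) were left out of library sizes and tests; reads outside genes were 20.7% to 30.2% of a library. Symbols, positions and exon lengths came from GENCODE M21, in which 55141 of 55401 identifiers matched without their version. No 2 libraries of a group agreed within sampling noise.

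Counts were filtered with filterByExpr, scaled by TMM and fitted over all 12 libraries with edgeR 4.0.16 (quasi-likelihood F test, robust, R 4.3.3, 8 residual degrees of freedom), with Benjamini-Hochberg adjustment over 16426 genes. Log2 CPM used a prior count of 2. The script was tested on simulated data. Ratios of 2 genes were tested by exact permutation over libraries. Alternatives were RLE factors, library totals, no filter, DESeq2 1.42.0, only the groups compared, summed stranded columns, the replicate number as a block, and leaving out each library. The 8 genes, the pathway list and the markers were chosen with earlier results of these data known. Of the pathway list, the called genes with the highest and lowest fold change per role and comparison could be named, and Fasl always; some genes that the rules pick are not reported here. Promoter windows are RefSeq's, on GRCm38.p6. No clear pairing of libraries by the labels' replicate numbers was seen: deviations from group means correlated over 0.1 in 1 of 18 same-numbered pairs. That pair, naive and effector replicate 2, was the highest of all (0.10, against at most 0.088 between other numbers). With 3 libraries per group the check cannot exclude a shared mouse or batch.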

Additional observations from a re-analysis of the deposited data

Results flagged for a closer look

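The day 14 and day 4 log2 fold changes against naive cells differed for Fas and for Casp1, each by edgeR's test of day 14 against day 4. For Fas the difference was -0.85 (adjusted p = 0.00282), with 0.12 at day 14 and 0.97 at day 4. For Casp1 it was 1.25 (adjusted p = 0.000636), with 3.79 at day 14 and 2.53 at day 4. In both genes the 3 day 14 libraries did not overlap the 3 day 4 libraries. The fold changes against naive cells share the naive libraries, and the test of the difference does not depend on them beyond the shared spread.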

How the results depend on the processing

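Of 48 combinations of gene and comparison, 28 were called, 24 of them under all 19 alternatives, and none of the 28 changed sign. Of the 20 not called, 17 were called under no alternative. Both ratio tests kept their direction and stayed past the threshold. Most changed calls of the 8 genes stand beside their results. Beyond those, with the replicate block the fall of Cflar in effector against naive cells failed (adjusted p = 0.0503), and the rise of Casp8 at day 14 over day 4 passed with DESeq2 (0.0394) and with only the groups compared (0.0486). The replicate block changed no other call of the 8 genes. Differences near 0 changed sign. Casp8 in day 14 against effector cells, -0.0081, became 0.038 with RLE factors, 0.054 with library totals, 0.030 without the filter and 0.039 with DESeq2. With the replicate block, Fadd and Casp6 in day 14 against day 4 became 0.053 and -0.0013. Leaving out each library in turn gave -0.0060 to 0.047 for Casp8 and -0.064 to 0.46 for Fadd in day 14 against effector cells, -0.0017 to 0.10 for Xiap there, -0.15 to 0.49 for Fadd in day 4 against effector cells, -0.57 to 0.025 for Fadd in day 4 against naive cells, -0.056 to 0.32 for Fas in day 14 against naive cells, -0.24 to 0.073 for Casp9 in effector against naive cells, and -0.19 to 0.28 for Casp6 and -0.28 to 0.32 for Fadd in day 14 against day 4. It left 3 to 5 of the 8 genes called in day 4 against effector cells, 7 to 12 of the pathway list and 1283 to 2206 of all genes in day 14 against day 4. The cause was not tested. Fadd, Casp6 and Casp9 had under 300 reads in every library, and Casp1 had 100, 80 and 45 in the naive libraries, which limits the precision of their fold changes.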
